A study of Oncorhynchus mykiss with 15 samples.

Results

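In cells labelled mature adipocytes of rainbow trout (Oncorhynchus mykiss), 128 genes had many counts and nearly the same median level in all 3 fat depots. They were chosen by their values in these libraries. The median had to be at least 100 CPM (counts per 1e+06 counts, adjusted between libraries by the TMM method) in each depot. The largest of the 3 depot medians could be at most 1.25 times the smallest. Of 64494 genes in the table, 25695 passed a filter on low counts, 861 of these reached the level in every depot, and the 128 were 14.9% of those 861. All 128 were measured in every library, with no fewer than 111 counts in any of them.

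The study compared visceral fat (VAT), subcutaneous fat (SAT) and intramuscular fat (IMAT), with 5 libraries each, in adult trout. No agent, diet change or genetic change was applied in any group. All fish shared 1 rearing regime and were fasted before sampling. Adipocytes were freed from each depot with collagenase, and ribosomal RNA was removed before library construction. No label ties a library to a fish or says whether animals were pooled, so p-values measure the spread between these libraries, which may be in part technical.

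Fat cells of every depot store lipid as triglyceride and release it as fatty acids, and in trout as in other vertebrates the depots differ in site, blood supply and use. Genes that every cell needs, such as those for protein synthesis, the cytoskeleton and energy supply, are usually the ones expressed at like levels across tissues, and such genes serve as references when other genes are compared. Whether the 128 genes belong to those groups cannot be said here. The table gives Ensembl identifiers without names, and the RefSeq gene table at hand paired 0 of its 72772 genes with an Ensembl identifier. No gene is therefore named, no marker of adipocytes or of another cell type could be looked up, and the labelled cell type was not checked. In these bulk preparations, fewer cells of a type and less RNA per cell cannot be told apart.

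Total counts ran from 2413951 to 9414223 per library and were lowest in IMAT. In all, 4 libraries stood apart, and treating them as a set was decided after the data had been seen. VAT replicate 5, SAT replicate 4 and SAT replicate 5 had the highest TMM factors (1.153, 1.23 and 1.29), and IMAT replicate 2 had the lowest (0.501), while the other 11 lay between 0.894 and 1.14. At equal depth SAT replicates 4 and 5 had the most detected genes (41561 and 41939), and IMAT replicate 2 had the fewest (27196). By these measures VAT replicate 5 was hardly apart. Its TMM factor was near the 1.145 of IMAT replicate 5, and its 35484 detected genes were fewer than the 36317 of VAT replicate 2. It is included for its values over the 128 genes, given below, so narrower spreads without it follow in part from the pick. Summaries over the 128 genes to which these libraries contribute strongly are given with and without them.

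Most abundant genes had depot medians over 1.25-fold apart. Of the 861, 27 had depot medians within 1.1-fold of each other and 101 lay between 1.1-fold and 1.25-fold. Another 221 reached up to 1.5-fold, 255 up to 2-fold, 220 up to 4-fold, and 37 differed by more. The 128 genes thus form the low end of a continuous distribution, with no gap at the limit. Among them the ratio of largest to smallest median was 1.16 at the middle and ran from 1.02 to 1.25. A ratio over the limit does not by itself show a depot difference, since medians of 5 libraries carry the spread between them. Of the 733 genes over it, edgeR called 31.4% between IMAT and VAT, 14.9% between IMAT and SAT and 7.37% between SAT and VAT. Of all genes tested it called 21.2%, 10.6% and 8.13% (Benjamini-Hochberg adjusted p under 0.05). The 733 were set apart by the same medians, so their shares are a description.

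**Figure D1:**
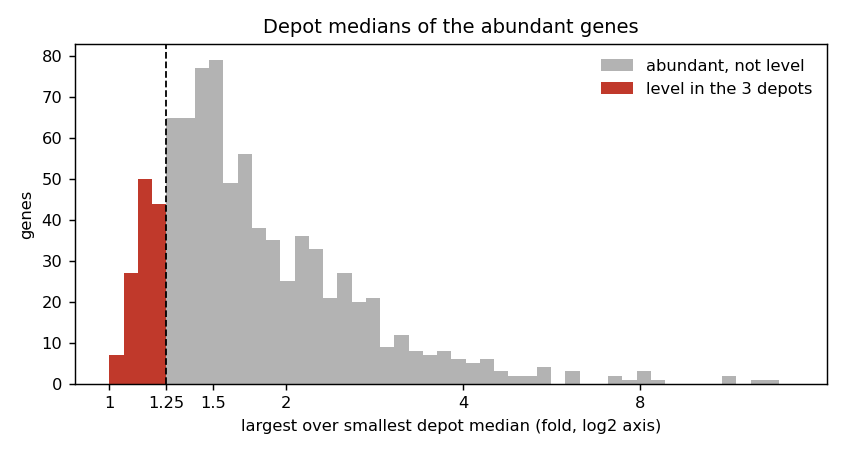
Number of abundant genes (y axis) by the ratio of their largest to their smallest depot median (x axis, log2 scale), with the 128 level genes in red, the other 733 in grey and the limit of 1.25 dashed. The counts rise across the limit without a gap, from 27 genes up to 1.1-fold and 101 up to 1.25-fold to 221 up to 1.5-fold.

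Values at the limits show how near the choice was for some genes. ENSOMYG00000035713, just inside the ratio limit at 1.248, was highest in VAT, with medians of 136, 109 and 110.1 CPM in VAT, SAT and IMAT. ENSOMYG00000029581, also inside at 1.248, was highest in SAT, with medians of 146, 179 and 143 CPM in VAT, SAT and IMAT. ENSOMYG00000016420, just outside at 1.2502, had medians of 1433, 1705 and 1364 CPM in the same order. ENSOMYG00000014976 was outside at 1.2511, with medians of 101, 127 and 118 CPM. These genes lay within the third decimal of the ratio limit, and SAT was the highest depot in 3 of the 4. At the level limit, ENSOMYG00000019658 was inside with a lowest median of 100.4 CPM in VAT. ENSOMYG00000075163 was outside with 99.9 CPM in IMAT, and ENSOMYG00000013174 was outside with 99.7 CPM in SAT.

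Most of the 128 genes lay close to the level limit. The mean of the 3 depot medians was 168 CPM at the middle gene, 76 genes (59.4%) lay under 200 CPM, and 5 genes exceeded 1000 CPM. Those 5 took 25.9% of the summed medians. CPM is not corrected for transcript length, so these figures describe counts and do not rank genes by transcript number.

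No depot held the highest median throughout. VAT was highest for 48 genes in all, with IMAT lowest for 32 of them and SAT for 16. SAT was highest for 41 genes, with IMAT lowest for 26 and VAT for 15. IMAT was highest for 39 genes, with VAT lowest for 26 and SAT for 13. By the rule all these differences are at most 1.25-fold, and they are given as a description.

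Level medians did not mean level libraries. For the middle gene of the 128, the highest of the 15 libraries was 2.16 times the lowest, and the range over the 128 genes was 1.41-fold to 11.5-fold. In 48 genes (37.5%) the highest library was under 2-fold above the lowest, and in 19 (14.8%) it was over 4-fold above. Taking the geometric mean of the 3 depot medians as the centre of a gene, 42 genes (32.8%) had all 15 libraries within 1.5-fold of it and 3 had all 15 within 1.25-fold. At least 14 libraries lay within 1.5-fold in 85 genes, and the fewest for any gene was 8. Without the 4 libraries that stood apart, the remaining 11 all lay within 1.5-fold of the centre in 96 genes and within 1.25-fold in 21 (16.4%). The middle gene then ran 1.70-fold from lowest to highest, and 99 genes (77.3%) ran under 2-fold.

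ENSOMYG00000015883 had the smallest spread of the 128 genes, taken as the largest SD of log2 CPM within a depot, here 0.108. The narrowest range over the 15 libraries, 1.41-fold, was that of another gene, and ENSOMYG00000015883 ran 1.45-fold. Its level was 216, 215, 216, 225 and 242 CPM in VAT replicates 1 to 5, it was 210.4, 177, 189, 196 and 176 CPM in SAT, and it was 186, 168, 196, 172 and 187 CPM in IMAT. Every VAT library lay above every SAT and every IMAT library, while SAT and IMAT overlapped. It was the only one of the 128 genes whose libraries did not overlap between any 2 depots, and it is singled out after its values were seen. Over all genes tested, the libraries did not overlap in 15.0% between IMAT and VAT, 9.19% between IMAT and SAT and 8.66% between SAT and VAT. The edgeR log2 fold change was -0.29 for IMAT against VAT, with an SE of 0.181 and a Benjamini-Hochberg adjusted p of 0.28. For VAT against SAT it was 0.23, with an SE of 0.181 and an adjusted p of 0.563 by edgeR. DESeq2 gave -0.27 for IMAT against VAT with an adjusted p of 0.0234. The ratio of its depot medians was 1.16, with VAT highest.

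ENSOMYG00000027118 followed with the second smallest spread by the same SD. It had 124, 145, 158, 152 and 138 CPM in VAT, 154, 149, 122, 139.6 and 139 CPM in SAT, and 157, 146, 185, 144 and 167 CPM in IMAT. All 3 depots overlapped, with means of 143 ± 13.4 CPM in VAT, 141 ± 12.1 CPM in SAT and 159.8 ± 17.0 CPM in IMAT (SD, n = 5 each). The 4 libraries that stood apart lay among the others for this gene.

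The ratio of raw counts between these genes needs no scaling at all. ENSOMYG00000015883 had 1.57 ± 0.175 counts per count of ENSOMYG00000027118 in VAT, 1.35 ± 0.14 in SAT and 1.14 ± 0.0559 in IMAT (SD, n = 5 each). Over the 15 libraries it ran from 1.06 to 1.75, a 1.66-fold range. For the pair with the most counts, the corresponding ratio ran 8.73-fold, from 0.921 in SAT replicate 2 to 8.04 in VAT replicate 5. Ranked by the mean SD of log2 count ratios to the other members, which also needs no scaling, ENSOMYG00000015883 was the second steadiest with 0.37 and ENSOMYG00000027118 was the 17th with 0.39. The first was ENSOMYG00000020180, also with 0.37, and the last of the 128 had 0.94.

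The pair with the closest medians was not the steadiest. ENSOMYG00000002561 had medians of 100.2, 102 and 102 CPM in VAT, SAT and IMAT, a ratio of 1.017, and it was also the gene nearest to the level limit from inside. Its libraries ran from 49.6 to 107 CPM in VAT, 62.4 to 138 CPM in SAT and 67.5 to 123 CPM in IMAT. The lowest library of each depot was among the 4 that stood apart. ENSOMYG00000011886 had medians of 115, 116 and 117 CPM, a ratio of 1.018, with 96.4 to 142 CPM in VAT, 84.4 to 144 CPM in SAT and 92.3 to 162 CPM in IMAT. Equal medians here came with ranges of 2.78-fold and 1.92-fold over the 15 libraries.

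ENSOMYG00000008541 had the most counts of the 128 genes and was level in its medians only. It had 3398, 4735, 2467, 2535 and 10464 CPM in VAT, 2378, 1843, 3005, 3799.6 and 3996 CPM in SAT, and 2401, 2744, 2535, 2906 and 2845 CPM in IMAT. VAT replicate 5 stood far above all others, while the IMAT libraries lay close together. Its SD of log2 CPM was 0.86 (VAT), 0.47 (SAT) and 0.12 (IMAT). The medians of 3398, 3005 and 2744 CPM gave a ratio of 1.24, whereas the VAT mean was 4720 ± 3339 CPM (SD, n = 5).

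ENSOMYG00000058538, the next by counts, was low in the libraries that stood apart. It had 1983, 1895, 1726, 1858 and 1302 CPM in VAT, 2401, 2001, 2496, 1439 and 1545 CPM in SAT, and 1927, 1236, 1782, 2093 and 1625 CPM in IMAT. The lowest libraries were VAT replicate 5, SAT replicates 4 and 5 and IMAT replicate 2. All 3 depots overlapped, and the range over 15 libraries was 2.02-fold.

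The largest spreads came with high values in VAT replicate 5. ENSOMYG00000041192 had 166, 184, 138, 141 and 814 CPM in VAT, 118, 92.0, 135, 211 and 395 CPM in SAT, and 136, 70.9, 124, 135 and 258 CPM in IMAT. ENSOMYG00000011927 had 215, 442, 278, 218 and 1260.4 CPM in VAT, 217, 119.5, 230.0, 371 and 372 CPM in SAT, and 208, 392.2, 166, 238 and 259 CPM in IMAT. Both were highest in VAT replicate 5, and within SAT both were higher in replicates 4 and 5 than in replicates 1 to 3. The highest library exceeded the lowest 11.5-fold and 10.5-fold, although the depot medians differed 1.23-fold and 1.21-fold. The next gene by spread, ENSOMYG00000014521, named after its values were seen, was highest in SAT replicate 5, at 1.875 above its centre on the log2 scale.

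**Figure D2:**
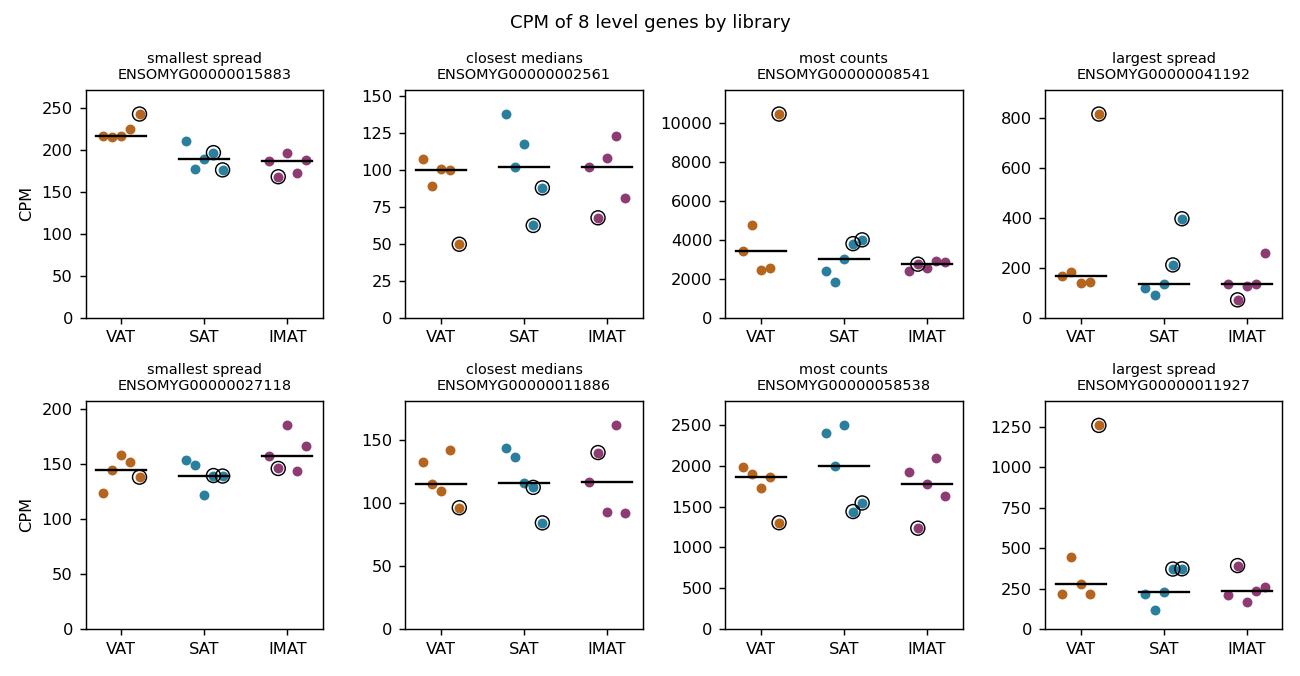
CPM (y axis, from 0) of 8 level genes in the 5 libraries of VAT, SAT and IMAT (x axis), with a line at each depot median and a ring around VAT 5, SAT 4, SAT 5 and IMAT 2. In the genes with the smallest spread the ringed libraries lie near the others, which follows from the pick. Even so, VAT 5 is highest (242 CPM) and IMAT 2 lowest (168 CPM) for ENSOMYG00000015883. VAT 5 reaches 10464 CPM for ENSOMYG00000008541 and 814 CPM for ENSOMYG00000041192.

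The 4 libraries held most of the extremes. Although they were 26.7% of the libraries, they held the lowest of the 15 values in 92 of the 128 genes (71.9%) and the highest in 68 (53.1%). The highest values were mostly those of VAT replicate 5 (32 genes) and IMAT replicate 2 (28 genes). SAT replicates 4 and 5 were highest in 4 genes each, fewer than the 16 of SAT replicate 3, which was not among the 4 libraries. In VAT replicate 5, 52 of the 128 genes (40.6%) lay within 1.25-fold of their centre, in IMAT replicate 2 it was 59, in SAT replicate 5 it was 65 and in SAT replicate 4 it was 79. In each of the other 11 libraries it was 93 to 114. Those shares describe libraries that also took part in the choice. The 4 libraries were picked after the data had been seen, so part of this may follow from the pick. The part that the TMM factors and the numbers of detected genes of these libraries had in this was not tested.

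Among the 128 genes the large deviations went both ways. In VAT replicate 5, 26 genes lay over 1.5-fold above their VAT median and 18 lay over 1.5-fold below it. In IMAT replicate 2, 13 lay above and 23 below by that much. In SAT replicate 5, 7 lay above and 18 below, and in SAT replicate 4, 2 lay above and 11 below. The median deviation of the 128 genes from their centre was -0.01 in VAT replicate 5, -0.04 in IMAT replicate 2, -0.15 in SAT replicate 4 and -0.18 in SAT replicate 5, on the log2 scale. In SAT replicates 4 and 5 there was thus also a small shift downward. The 733 abundant genes that were not level leaned downward in all 4 libraries. By over 1.5-fold from the depot median, 81 of them lay above and 306 below in VAT replicate 5, where more of the 128 lay above than below. In SAT replicate 5 it was 45 above and 318 below, in SAT replicate 4 it was 26 and 192, and in IMAT replicate 2 it was 98 and 229.

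Some genes deviated in more than 1 of these libraries. All 7 genes over 1.5-fold above in SAT replicate 5 were among the 26 of VAT replicate 5 (26.9% of those), and so were both such genes of SAT replicate 4 (7.69%). The 26 genes had a median of 2.19 times their VAT median in VAT replicate 5. They had 1.28 times the SAT median in SAT replicate 5 and 0.843 times the IMAT median in IMAT replicate 2. In IMAT replicate 5, which was not among the 4 libraries, 19 of the 26 lay above the IMAT median. All 26 together had a median of 1.08 times the IMAT median there. Of the 18 genes over 1.5-fold below in VAT replicate 5, 4 (22.2%) were among the 18 such genes of SAT replicate 5 (22.2% of those). In SAT replicate 4, 5 of the 18 (27.8%) were among its 11 such genes (45.5% of those). In IMAT replicate 2, 2 of the 13 genes above (15.4%) and 5 of the 23 below (21.7%) were among those of VAT replicate 5. Of all 128 genes, 20.3% lay above and 14.1% below by that much in VAT replicate 5. The shares below were 14.1% in SAT replicate 5 and 8.59% in SAT replicate 4.

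Across the 128 genes, the deviations from the depot median had a Spearman correlation of 0.63 between VAT replicate 5 and SAT replicate 5 and of 0.50 between VAT replicate 5 and SAT replicate 4. Over all 75 pairs of libraries from different depots it ran from -0.55 to 0.63, with a median of -0.04. IMAT replicate 5, outside the 4 libraries, had 0.51 with SAT replicate 4, 0.49 with VAT replicate 5 and 0.35 with SAT replicate 5. VAT, SAT and IMAT replicates 5 carry the same number, and no label says that this marks a shared fish or batch. IMAT replicate 2 had -0.12 with VAT replicate 5 and -0.29 with SAT replicate 5. Genes are not independent replicates, the libraries of a depot share its median, and these values are a description.

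**Figure D3:**
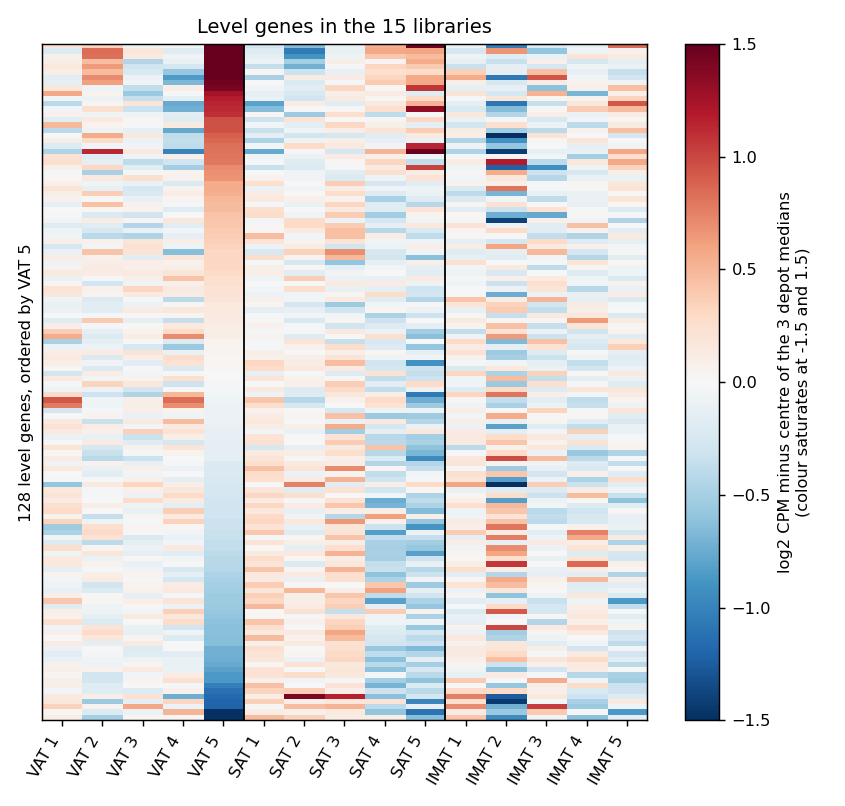
Deviation of log2 CPM from the centre of the 3 depot medians (colour, log2 units) for the 128 level genes (rows, ordered by VAT 5) in the 15 libraries (columns, depots divided by lines). VAT 5 and IMAT 2 show the strongest colours in both directions.

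The median SD of log2 CPM within a depot was 0.28 (VAT), 0.32 (SAT) and 0.27 (IMAT) for the 128 genes. For the 733 abundant genes that were not level it was 0.44 in each depot. Counting error alone would give medians of 0.04 to 0.07 for the 128, well under the observed spread. All 3 SDs were under 0.25 in 15 of the 128 genes (11.7%) and in 18 of the 733 (2.46%). The pooled SD within depots was 0.31 at the middle of the 128 genes and 0.49 at the middle of the 733. Without the 4 libraries these fell to 0.20 and 0.28, and within SAT alone the medians were then 0.19 in both sets. The same libraries chose the genes, so this contrast is given without a test.

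**Figure D4:**
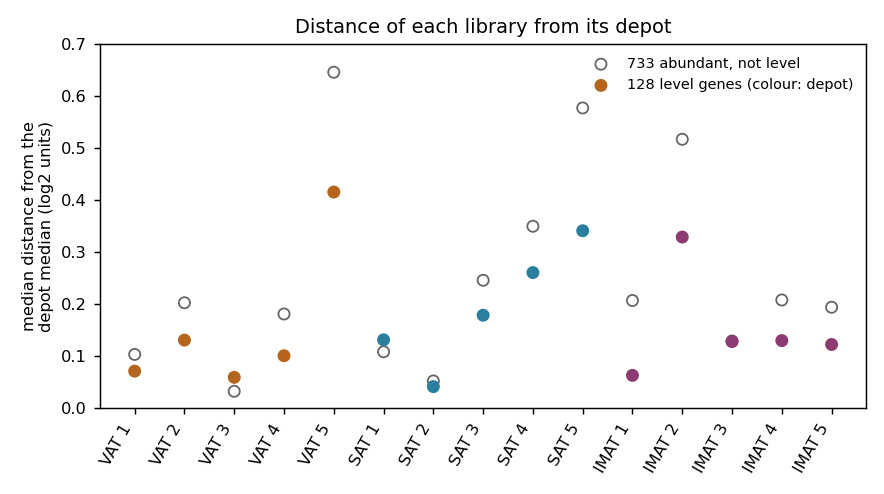
Median distance of the genes of a library from their own depot median (y axis, log2 units) in the 15 libraries (x axis), for the 128 level genes (filled) and the 733 other abundant genes (open). For the level genes, distances are largest in VAT 5 (0.42), SAT 5 (0.34), IMAT 2 (0.33) and SAT 4 (0.26) and do not exceed 0.18 in the other 11 libraries. For the other genes those 11 reach up to 0.25, in SAT 3.

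A library that the choice had not used gave a view that the rule fixed only in part. Each library was left out in turn, the rule was applied to the other 14, and the value in the left-out library was then set against the centre of the 3 depot medians. The scale of the left-out library came from the TMM factors of all 15. Between 118 and 171 genes were chosen in this way. Of the chosen genes, 34.7% to 85.5% lay within 1.25-fold of the centre in the left-out library, with a median of 65.8% over the 15 libraries. Of the abundant genes not chosen, 14.1% to 63.2% did so, with a median of 44.9%. The chosen genes had the higher share in 15 of 15 libraries. Genes not chosen have depot medians over 1.25-fold apart by the rule, which places their libraries off the centre. The 15 choices also share most of their libraries and are not separate checks, so the order is a description.

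The 3 lowest shares were again those of libraries that stood apart, with 34.7% in VAT replicate 5, 35.7% in IMAT replicate 2 and 46.0% in SAT replicate 5. SAT replicate 4 had 54.8%, and SAT replicate 3 had 50.7%, the lowest of the other 11. Measured against the median of its own depot, where differences between depots do not enter, the share of chosen genes was 70.0% at the middle library. That of the others was 48.1%, with the chosen genes ahead in 15 of 15. In SAT replicate 1 the 2 shares were close, at 59.9% and 58.5%. The choice may favour genes with a small spread within depots, so the lead of the chosen genes is a description here too. Within 1.5-fold of the centre, the share of chosen genes was 91.5% at the middle library and 59.2% in VAT replicate 5.

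**Figure D5:**
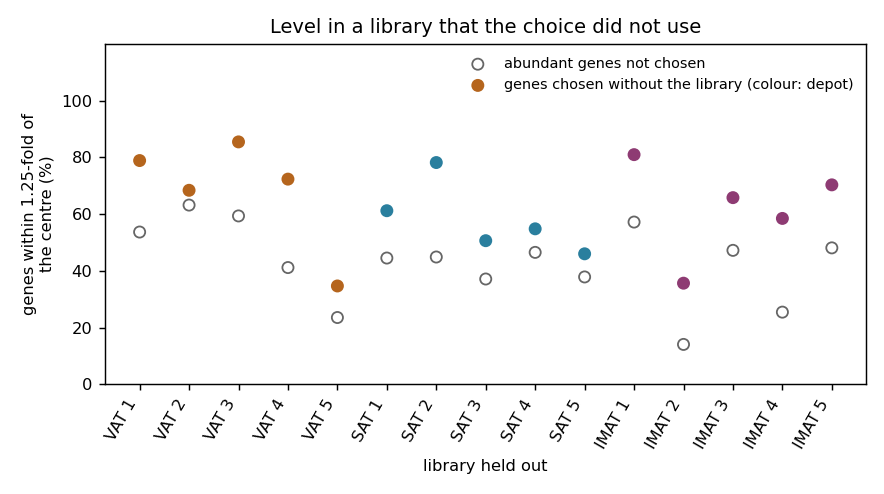
Share of genes within 1.25-fold of the centre (y axis, percent) in each library left out of the choice (x axis), for genes chosen from the other 14 libraries (filled) and for the abundant genes not chosen (open). The filled points lie above the open ones in every library, and both are low in VAT 5 (34.7% and 23.6%) and IMAT 2 (35.7% and 14.1%).

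In edgeR's quasi-likelihood fit of all 25695 genes, 0 of the 128 were called between any 2 depots at a Benjamini-Hochberg adjusted p under 0.05. Over all genes tested, 21.2% were called between IMAT and VAT, 10.6% between IMAT and SAT and 8.13% between SAT and VAT. The 128 genes were chosen on the same contrasts, so nothing is read from the count of 0. At an unadjusted p under 0.05, 4 of the 128 passed between IMAT and VAT, 0 between IMAT and SAT and 1 between SAT and VAT, where 32.6%, 23.8% and 19.0% of all genes passed. DESeq2 called 1 of them for IMAT against VAT, which was ENSOMYG00000015883, and 0 in the other comparisons, and limma-voom called 0 in each. Of all 25695 genes, DESeq2 called 6660 (IMAT against VAT), 3963 (IMAT against SAT) and 2907 (VAT against SAT). By limma-voom it was 4872, 2250 and 2100 in the same order.

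A missing call does not show equality, and the intervals give the differences that 5 libraries a depot could not tell from none. The 95% limma-voom interval of the log2 fold change had a median half-width of 0.45 to 0.46 in the 3 comparisons. It lay wholly within 2-fold for 116 of the 128 genes between IMAT and VAT, 120 between IMAT and SAT and 119 between SAT and VAT, and for 112 genes (87.5%) in all 3. It lay within 1.5-fold for 49, 53 and 59 genes, and within 1.25-fold, the width of the rule itself, for 0 in each. It lay wholly to 1 side of 0 for 2 genes between IMAT and VAT. Without the 4 libraries the median half-width was 0.35 to 0.37, and the interval lay within 2-fold for 125, 124 and 124 genes in the same order. It then lay within 1.5-fold for 93, 69 and 73 genes, within 1.25-fold for 1, 0 and 0, and to 1 side of 0 for 8, 16 and 10. The rule held the medians of these same libraries close, so intervals near 0 follow in part from the choice. Neither intervals within a fold limit nor those to 1 side of 0 were counted over all genes. Nothing is therefore read from either kind of count.

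Fitted differences were wider than the medians. As edgeR log2 fold changes they ran from -0.99 to 0.54 (IMAT against VAT), from -0.76 to 0.54 (IMAT against SAT) and from -0.76 to 0.93 (VAT against SAT), where the rule allows medians at most 0.32. The lowest for IMAT against VAT was that of ENSOMYG00000041192, with an SE of 0.519 and a Benjamini-Hochberg adjusted p of 0.195 by edgeR. The highest for VAT against SAT was that of ENSOMYG00000011899, with an SE of 0.406 and an edgeR adjusted p of 0.207. The latter, named after its values were seen, had 2526 CPM in VAT replicate 5 and 502 to 929 CPM in the other VAT libraries, against 281 to 724 CPM in SAT and 459 to 599.9 CPM in IMAT. VAT replicate 5 was its highest library, and its depot medians differed 1.16-fold. Without the 4 libraries the fitted ranges were -0.59 to 0.48 (IMAT against VAT), -0.81 to 0.55 (IMAT against SAT) and -1.02 to 0.61 (VAT against SAT). For IMAT against SAT and VAT against SAT the low ends thus lay further out than the -0.76 with all 15 libraries. Both low ends were those of ENSOMYG00000002596, with an edgeR adjusted p of 0.0429 for VAT against SAT. ENSOMYG00000041192 then had 0.11 for IMAT against VAT, with an SE of 0.241 and an edgeR adjusted p of 0.816, so its sign turned. ENSOMYG00000011899 had 0.61 for VAT against SAT, with an SE of 0.256 and an edgeR adjusted p of 0.152.

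Which genes counted as level depended on the scale between libraries more than their number did. The rule chose 139 genes with DESeq2 size factors, 123 with upper-quartile factors, 154 with library totals alone and 126 with TMM factors from a table without the filter on low counts. Of the 128, these held 123, 105, 67 and 59. Against the TMM scale, library totals lowered IMAT relative to VAT by a log2 difference of -0.21 and TMM without the filter by -0.23, while DESeq2 size factors moved it by 0.03 and upper-quartile factors by -0.07. Between IMAT and SAT the shifts were -0.07 with library totals, -0.19 without the filter, 0.03 with DESeq2 size factors and -0.09 with upper-quartile factors.

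Under all 5 scalings 45 of the 128 genes (35.2%) met the rule, and 23 of these (18.0% of the 128) also met it in each of the 15 choices with 1 library left out. Such a core was sought after the data had been seen. In the choices with 1 library left out alone, 52 of the 128 (40.6%) were always chosen and 31 were chosen in 10 or fewer, while 140 other genes were chosen at least once. The median ratio of depot medians was 1.09 in the core and 1.17 in the other 105 genes. In 12 of the 23 core genes (52.2%) all 15 libraries lay within 1.5-fold of the centre, as did 30 of the other 105 (28.6%). The core was chosen from the same libraries, so these values are a description.

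The core gene with the most counts was ENSOMYG00000012630, named after its values were seen. It had 1613, 1747, 1413, 1337 and 1467 CPM in VAT, 1895, 1603, 2091, 1218 and 1158 CPM in SAT, and 1759, 2150.2, 1665, 1869.8 and 1637 CPM in IMAT. All 3 depots overlapped, its means were 1516 ± 164 CPM in VAT, 1593 ± 409 CPM in SAT and 1816 ± 208 CPM in IMAT (SD, n = 5 each), and the highest library was 1.86 times the lowest. Of the genes described above, ENSOMYG00000027118 was also in the core. ENSOMYG00000015883 was level in 2 of 5 scalings, although all 15 choices with a library left out held it, and its largest ratio of medians under any scaling was 1.38. ENSOMYG00000008541 was level in 2 of 5 scalings and in 5 of 15 such choices. ENSOMYG00000002561, whose medians were closest, was level in 1 of 5 scalings and in 2 of 15 such choices, the fewest of the 128.

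Together the 128 genes took a small share of each library. They held 3.60 to 5.61% of the counts in the VAT libraries, 3.55 to 4.36% in SAT and 1.89 to 4.02% in IMAT. The highest share was that of VAT replicate 5 and the lowest that of IMAT replicate 2. On the TMM scale the summed level was 39381 ± 5983 CPM in VAT, 37145 ± 3389 CPM in SAT and 36660.1 ± 1074 CPM in IMAT (SD, n = 5 each). IMAT replicate 2, at 37919 CPM, was then just above the other IMAT libraries (35509 to 37468 CPM), whereas VAT replicate 5 had the highest sum at 49295 CPM. Without the 4 libraries the sums were 36903 ± 2603 CPM in VAT (SD, n = 4), 39091 ± 2919.9 CPM in SAT (SD, n = 3) and 36345 ± 938 CPM in IMAT (SD, n = 4), so that SAT and no longer VAT had the highest mean. The 4 libraries held the highest VAT sum and the lowest SAT sums (33730 and 34720 CPM), so this change follows from the pick.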

How the data were processed

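Raw counts per gene were deposited by the authors in 1 table of 64494 genes and 15 libraries (5 per depot). Per the submitters' processing notes, the tools named are Trimmomatic 0.30, STAR 2.5.2b, featureCounts of Subread 1.5.2 and DESeq2 1.6.3. Build, annotation, strand and the handling of multi-mapping reads were not given in the sources used here. Salmonid genomes hold many similar gene copies, so counts of near-identical or overlapping genes are uncertain.

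Here, genes were filtered with filterByExpr by depot (minimum count 10, minimum total 15) and scaled by TMM in edgeR 4.0.16 (R 4.3.3). Log2 CPM for SDs used a prior count of 2. Depots were compared in 1 fit of all 15 libraries (glmQLFit with robust estimates, glmQLFTest, Benjamini-Hochberg over 25695 genes, threshold 0.05). SE is the size of the log2 fold change divided by the square root of F and is a rough guide. Intervals came from limma-voom (limma 3.58.1), and DESeq2 1.42.0 was an alternative, beside other scalings, filters, limits, a common depth, left-out libraries and a replicate block. The scripts were tested on simulated counts. All 30 pairs of libraries within depots differed by at least 6.37 in chi-square per degree of freedom, so each library counted once. Detected genes were counted after thinning to 2413951 counts.

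The genes and lists were chosen with earlier results of these data known. Per category the 2 genes foremost were named: most counts, smallest and largest spread (largest SD of log2 CPM within a depot), closest medians, and nearest to each limit inside and outside. Genes called by edgeR among the 128 were a further category and were 0. Gene and marker lists could not be matched to identifiers and were not used. Small RNA libraries were not analysed here. No sequence is shown, because no identifier could be paired with one.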

Additional observations from a re-analysis of the deposited data

Results flagged for a closer look

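In 66 groups of 5 libraries (the CPM of the named genes and 7 measures per library, by depot), 10 had 1 library so far out that its distance to the next value was over 0.71 of the range of the group. Chance gives about 1 in 20 groups, but some of these genes were named for a large spread and several measures are linked, so the 10 are not compared with chance.

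The most frequent such library was VAT replicate 5, the highest of its depot for 5 named genes. It had 10464 CPM of ENSOMYG00000008541 (2467 to 4735 CPM in the others) and 814 CPM of ENSOMYG00000041192 (138 to 184 CPM). It had 1260.4 CPM of ENSOMYG00000011927 (215 to 442 CPM), 225 CPM of ENSOMYG00000019658 (93.9 to 110.2 CPM) and 199 CPM of ENSOMYG00000075163 (76.0 to 109 CPM), which is just outside the level limit. Over the 128 genes it also stood apart by the 52 genes within 1.25-fold of their centre (101 to 114 in the others) and by its median distance of 0.42 from the depot median (0.06 to 0.13 on the log2 scale).

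For IMAT replicate 2 the measures were a total of 4199494, where the rest of IMAT had 2413951 to 2655266 counts, and a median distance of 0.33 from the depot median (0.06 to 0.13 in the rest). In SAT, replicate 3 had 134 CPM of ENSOMYG00000075163 (101 to 109 CPM in the rest).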

How the results depend on the processing

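The count of 128 level genes was 55 where the largest median could be 15% above the smallest, 349 with a ratio limit of 1.5, 453 with a level limit of 50 CPM and 48 with 200 CPM. It was 134 with means in place of medians (88 shared), 138 at equal depth (105 shared), 137 without the 4 libraries together (84 shared, an alternative chosen after seeing the data) and 118 to 171 with 1 library left out.

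Members called, 0 in each comparison, became 2 for IMAT against VAT without the filter (ENSOMYG00000011899 and ENSOMYG00000042652) and 1 with DESeq2 (ENSOMYG00000015883). Over all genes in those fits, 6256 and 6660 were called. DESeq2 was fitted to the 25695 filtered genes, and the fit without the filter held more genes. Without the 4 libraries 1 was called for VAT against SAT (ENSOMYG00000002596, edgeR adjusted p = 0.0429), where 3011 of all genes in that fit were. Its filter was applied anew to the remaining libraries. With 1 library left out, with the replicate block, upper-quartile factors or limma-voom, at equal depth and in fits of the compared depots only, it was 0 in all 3. The genes called were named after their values were seen, and the cause was not tested. The numbers of genes tested without the filter and without the 4 libraries are not given here. Nothing is read from the counts of members called there.

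Over all genes, 5442 were called between IMAT and VAT, 2716 between IMAT and SAT and 2090 between SAT and VAT. With 1 library left out these were 4726 to 6120, 1962 to 3515 and 1589 to 2432. VAT against SAT gave 1369 at equal depth, and IMAT against SAT gave 4398 without the 4 libraries. The replicate block gave 5879, 2819 and 2460. Deviations of same-numbered libraries correlated at over 0.1 in 9 of 15 pairs (-0.13 to 0.53), and replicates 5 gave 0.53, 0.27 and 0.19. No such count is given for libraries of different numbers, so these values cannot decide whether same-numbered libraries share a fish. The numbers were not taken to pair libraries because no label says that they do.

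The median pooled SD of the 128 genes, 0.31, was 0.26 to 0.33 with 1 library left out, 0.30 with DESeq2 size factors, 0.36 with library totals and 0.20 without the 4 libraries. The median share within 1.25-fold in a left-out library was 65.2% with DESeq2 size factors. At the depth of these libraries, counting error was small for the 128 genes beside the spread between libraries. The median half-width of the limma-voom intervals was 0.45 to 0.46 with all 15 libraries and 0.35 to 0.37 with the 11. What limits the precision was not tested.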
